A study of Mus musculus with 2 samples.

Results

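The genes examined were 10 that encode RNA polymerase I and the factors it works with, out of 12836 genes in the deposited table. They were taken by symbol, and all 10 had a row. Polr1a, Polr1b and Polr1e encode subunits of the enzyme's own, Polr1c and Polr1d encode subunits it shares with RNA polymerase III, Taf1a and Taf1b encode parts of the promoter selectivity factor SL1, and Ubtf, Rrn3 and Tcof1 encode the activator UBF, the initiation factor TIF-IA and the nucleolar phosphoprotein treacle. Values were compared between 1 library of ICR mouse morulae that had received double-stranded RNA targeting Nat10 (dsNat10) and 1 library of ICR morulae that had received double-stranded RNA targeting GFP (dsGFP), a gene that mouse cells lack. Both groups were thus injected, and no uninjected embryos were analysed here. The design text speaks of 50 morulae without saying whether that is per library, so each library is a pool whose spread between embryos is unknown. With 1 library per group there is no replicate check and no test, and each value below describes these libraries. The series is concerned with N4-acetylcytidine, the RNA modification that Nat10 makes, and with the step from morula to blastocyst.

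RNA polymerase I (Pol I) copies the repeated ribosomal DNA into the precursor of the large ribosomal RNAs, inside the nucleolus. UBF binds along the ribosomal DNA and SL1 binds its promoter, and TIF-IA then joins to Pol I so that the polymerase can start. Treacle binds UBF and Pol I and is needed for full ribosomal RNA output. In the mouse embryo the nucleolus takes on its mature form, with active ribosomal DNA, during cleavage, so the morula is a stage at which this machinery is in use.

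The injected RNA's target was far lower in dsNat10. Nat10 had 37 reads in dsNat10 and 886 in dsGFP, which is 4.22% of the dsGFP level (95% counting interval 2.95% to 5.86%). The libraries held 28303119 estimated reads in dsNat10 and 29139232 in dsGFP. The libraries stood apart in how many genes they detected, with 2657 of the 12836 genes at 0 reads in dsNat10 and 458 in dsGFP, and the part of this in the values below was not tested. None of the 10 members was at 0. Of 9 morula markers, 8 were in the table, and each had reads in both libraries, at 23.97 to 15850 TPM in dsNat10 and 71.71 to 14236 TPM in dsGFP. Of these, 0 were higher and 3 were lower in dsNat10 (Nanog, Tead4 and Krt8, named after their values were seen) by the size rule explained with the counts of called genes. By that rule 15.2% of the 8738 genes past its mean limit were higher and 15.3% were lower. TPM divides by gene length and sums to 1000000 in a library, so it can be compared between genes. Of other cells' markers, 2 of 5 cumulus cell genes were in the table, and summed to 23.9 TPM in dsNat10 and 27.0 TPM in dsGFP. Amhr2 alone had 23.9 TPM in dsNat10 and 26.9 TPM in dsGFP. For the 4 of 6 blood and fibroblast genes in the table the sum was 75.2 TPM in dsNat10 and 82.6 TPM in dsGFP. Of both lists Inhba and Col1a1 were at 0 reads in dsNat10, with 2 and 9 reads in dsGFP. Within the second list Cd68 was the most abundant in each library, at 32.7 TPM in dsNat10 and 40.7 TPM in dsGFP. Pecam1 had 31.1 TPM in dsNat10 and 16.45 TPM in dsGFP, while Hba-a1, with a fractional count, had 11.3 TPM in dsNat10 and 25.3 TPM in dsGFP. For the 2 of 5 oocyte genes in the table the sum was 29.3 TPM in dsNat10 and 6.52 TPM in dsGFP. Zp3 had 642 reads in dsNat10 and 106 in dsGFP, and Gdf9 had 1 read in dsNat10 and 54 in dsGFP. The part of these markers in the values below was not tested. In a pool of embryos, fewer cells that express a gene and less of its RNA per cell cannot be told apart.

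The sequences before the start sites of Polr1a, the catalytic subunit, and Rrn3, the member with the most reads, are given because these 2 windows lay clear of the annotated gene. Each is the 100 bases before the start site in the RefSeq promoter table (GRCm38.p6), which held 9 of the members. Capitals mark a match to one of 5 motifs searched on both strands, none of which contains another. Polr1a is from chr6:71908953-71909052 and Rrn3 from chr16:13780599-13780698, both on the plus strand.
Polr1a: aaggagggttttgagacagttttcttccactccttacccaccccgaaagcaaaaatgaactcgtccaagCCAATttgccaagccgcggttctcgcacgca
Rrn3: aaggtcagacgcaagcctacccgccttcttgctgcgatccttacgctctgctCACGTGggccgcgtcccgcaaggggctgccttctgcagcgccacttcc

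Over the 9 windows, CCGGAA, the core of sites for ETS factors, was found in 2 (Taf1a and Polr1c), against 7.23% of the 32851 windows of that length in the table. GGGCGG, bound by Sp1, was in 3 (Polr1b, Polr1e and Ubtf) against 24.7% of all windows. CACGTG, the E-box that Myc binds, was in 1 (Rrn3) against 3.17%, and CCAAT was in 1 (Polr1a) against 18.9%. TATAAA was in 0 of the 9 windows, against 5.56% of all. The other 7 windows held bases of the gene's own exons in GENCODE M21 or of its RefSeq span, since annotated starts differ, and those of Taf1a, Taf1b, Polr1d and Ubtf lay wholly within one of these, so they are not all upstream of the gene.

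Among the enzyme's subunits, the largest subunit and its partner differed in direction. Polr1a, which encodes the largest, catalytic subunit, had 3541 reads in dsNat10 and 2340 in dsGFP, or 35.7 TPM in dsNat10 and 22.6 TPM in dsGFP. It was 1.53-fold higher in dsNat10 (95% counting interval 1.45 to 1.61). Polr1b, the second largest subunit, which forms the active site together with Polr1a's product, had 5254 reads in dsNat10 and 6462 in dsGFP, or 71.2 TPM in dsNat10 and 83.2 TPM in dsGFP. It was 1.22-fold lower in dsNat10 (1.17 to 1.26), and its estimated counts are fractional, so reads may have been split with another gene. Within a library, the TPM of Polr1b was 1.99 times that of Polr1a in dsNat10 and 3.68 times in dsGFP.

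Polr1e encodes PAF53, a peripheral subunit that takes part in initiation, and was the member at the lowest level. It had 1062 reads in dsNat10 and 773 in dsGFP, or 16.3 TPM in dsNat10 and 11.3 TPM in dsGFP, and was 1.39-fold higher in dsNat10 (1.26 to 1.52). The ratio of its TPM to that of Polr1a was nearly alike in the libraries, at 0.457 in dsNat10 and 0.499 in dsGFP. An exon of Polr1e is overlapped on the other strand by Fbxo10 and an exon of Polr1a by the antisense gene Gm26628 in GENCODE M21. SMART-seq2 libraries carry no strand information, and reads from such pairs cannot be told apart.

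Polr1c and Polr1d encode the pair of subunits, known as AC40 and AC19, on which Pol I and Pol III are assembled. Both were lower in dsNat10 and both were abundant. Polr1c had 6778 reads in dsNat10 and 7892 in dsGFP, or 313 TPM in dsNat10 and 346 TPM in dsGFP, the highest TPM of the 10 genes in each library. It was 1.15-fold lower in dsNat10 (1.12 to 1.19). Polr1d had 2480 reads in dsNat10 and 3613 in dsGFP, or 177 TPM in dsNat10 and 246 TPM in dsGFP, and was 1.44-fold lower in dsNat10 (1.37 to 1.52). Relative to the catalytic subunit the pair was less abundant in dsNat10. The TPM of Polr1c was 8.76 times that of Polr1a in dsNat10 and 15.3 times in dsGFP, and that of Polr1d was 4.96 times in dsNat10 and 10.9 times in dsGFP.

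The SL1 genes among the members had the highest ratios. Taf1a, which encodes the TAFI48 subunit, had 3523 reads in dsNat10 and 1339 in dsGFP, or 83.7 TPM in dsNat10 and 30.3 TPM in dsGFP. It was 2.66-fold higher in dsNat10 (2.50 to 2.83). Taf1b, whose product resembles the Pol II factor TFIIB and holds the polymerase at the promoter, had 1991 reads in dsNat10 and 1065 in dsGFP, or 56.1 TPM in dsNat10 and 28.5 TPM in dsGFP. It was 1.89-fold higher in dsNat10 (1.75 to 2.04). In dsGFP the TPM intervals of the pair overlapped, with a ratio of 1.06 between Taf1a and Taf1b, while in dsNat10 they did not, with a ratio of 1.49.

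Rrn3, Ubtf and Tcof1 went in both directions. Rrn3 had 13255 reads in dsNat10 and 9119 in dsGFP, the most reads of any member in each library, or 201 TPM in dsNat10 and 131 TPM in dsGFP. It was 1.47-fold higher in dsNat10 (1.43 to 1.51). Ubtf had 6049 reads in dsNat10 and 5395 in dsGFP, or 96.5 TPM in dsNat10 and 82.2 TPM in dsGFP, and was 1.13-fold higher in dsNat10 (1.09 to 1.18), with a fractional estimated count. Tcof1 had 2518 reads in dsNat10 and 4490 in dsGFP, or 29.6 TPM in dsNat10 and 49.9 TPM in dsGFP. It was 1.76-fold lower in dsNat10 (1.68 to 1.85), the lowest ratio of the 10 genes. In humans, TCOF1, POLR1B, POLR1C and POLR1D are the genes mutated in Treacher Collins syndrome, a disorder of the facial skeleton. Their mouse counterparts were the 4 members with a ratio below 1 here, a grouping noticed after the values were seen and not tested. It rests on direction alone. By the size rule 0 members were lower in dsNat10, and at a 1.5-fold limit Tcof1 alone was. Polr1b, Polr1c and Polr1d were 1.22-fold, 1.15-fold and 1.44-fold lower. Of genes in the members' range of abundance, 49.2% had a log2 ratio above 0.

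**Figure D1:**
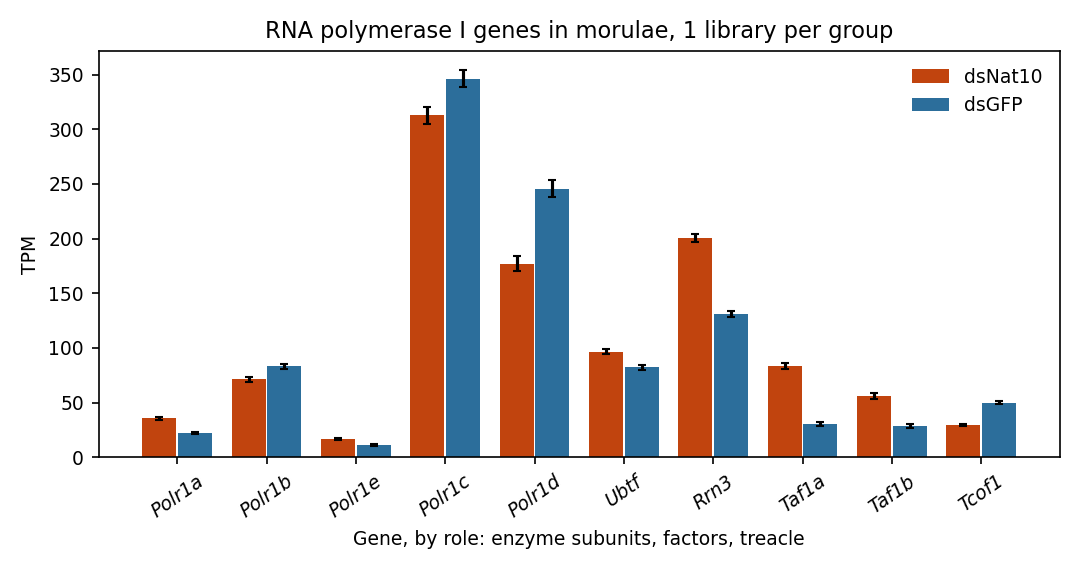
TPM of the 10 genes in the dsNat10 library (left bar of each pair) and the dsGFP library (right bar), with lines for the exact 95% Poisson interval of the reads behind each value, which covers counting error only. Polr1c is the tallest in each library, at 313 TPM in dsNat10 and 346 TPM in dsGFP, and Taf1a shows the widest relative gap, at 83.7 TPM in dsNat10 and 30.3 TPM in dsGFP.

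The order of levels by TPM differed between the libraries at each place except the first (Polr1c) and the last (Polr1e). In dsNat10 it ran Polr1c, Rrn3, Polr1d, Ubtf, Taf1a, Polr1b, Taf1b, Polr1a, Tcof1 and Polr1e, and the counting intervals of neighbours did not overlap. In dsGFP it ran Polr1c, Polr1d, Rrn3, Polr1b, Ubtf, Tcof1, Taf1a, Taf1b, Polr1a and Polr1e, and the intervals of Polr1b and Ubtf and those of Taf1a and Taf1b overlapped. The place of Tcof1 was 9 in dsNat10 and 6 in dsGFP, and that of Taf1a was 5 in dsNat10 and 7 in dsGFP. Summed over the 5 enzyme subunits the level was 613 TPM in dsNat10 and 709 TPM in dsGFP. Polr1c and Polr1d, shared with Pol III, were the largest parts of that sum, and both were lower in dsNat10. Of the enzyme's own subunits, Polr1a and Polr1e had more TPM in dsNat10 and Polr1b had less. Over the 5 factors the sum was 467 TPM in dsNat10 and 322 TPM in dsGFP. For all 10 genes the sums were close, at 1079 TPM in dsNat10 and 1031 TPM in dsGFP.

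Large differences among the members were counted by a size rule. A gene was called when its mean level was at least 5 CPM (reads per 1000000), its log2 ratio of CPM plus 1, dsNat10 over dsGFP, was 1 or more in size and the counting interval of the ratio left out equality. By this rule 1 of 10 members, Taf1a, was higher in dsNat10 and 0 were lower, while 15.2% of the 8738 genes that passed the mean limit were higher and 15.3% were lower. All 10 members passed that limit, with means of 32.0 to 390 CPM. Over the 4181 genes whose mean lay within that range, 7.22% were higher and 6.94% lower. Taf1b, at a log2 ratio of 0.90, was the member nearest the limit without passing it. The log2 ratios of the members ran from -0.81 (Tcof1) to 1.39 (Taf1a), with 6 above 0 and 4 below 0, where 50.5% of all genes and 49.2% of genes in their range of abundance were above 0. Their median was 0.32, beside 0.01 for all genes past the mean limit and -0.01 for genes in their range of abundance. Over the 5 enzyme subunits the median was -0.20, with 2 log2 ratios above 0 and 3 below. Over the 5 factors it was 0.55, with 4 above 0 and 1 below. At a limit of 1.5-fold, 3 members were higher (Taf1a, Taf1b and Polr1a) and 1 was lower (Tcof1), beside 25.1% higher and 23.8% lower of all genes and 17.1% higher and 17.2% lower of genes in their range of abundance. Within that range the interquartile span of the log2 ratio ran from -0.41 to 0.40, and 7 of the 10 members lay outside it. By definition that span leaves out 25% of the genes in the range on each side.

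**Figure D2:**
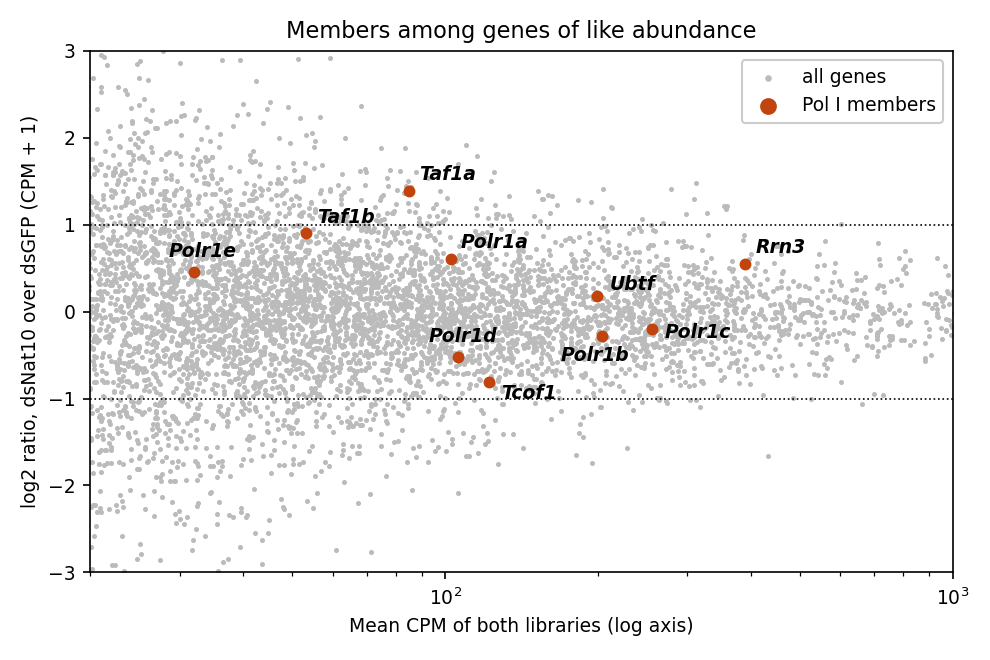
Log2 ratio of CPM plus 1, dsNat10 over dsGFP, against the mean CPM of both libraries on a log axis, for 5588 of the 5632 genes with a mean of 20 to 1000 CPM (grey, those within 3 on the log2 scale) and for the 10 members (red). Dotted lines mark a log2 ratio of 1 in size, and Taf1a at 1.39 is the member beyond them.

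The other genes of the Pol I machinery had ratios in both directions as well. The 3 remaining subunits of the enzyme's own were within the size limit, with 1 log2 ratio above 0 and 2 below and a median log2 ratio of -0.11. At a mean limit of 50 CPM that median was 0.65, since Twistnb alone passed. Twistnb, which encodes the subunit RPA43 that TIF-IA contacts, had 2458 reads in dsNat10 and 1569 in dsGFP and was 1.58-fold higher in dsNat10 (1.49 to 1.69). Znrd1, the subunit RPA12 used in cleaving the nascent RNA, had 987 reads in dsNat10 and 1654 in dsGFP and was 1.66-fold lower in dsNat10 (1.53 to 1.80). It was also the most abundant of the 3, at 98.6 TPM in dsNat10 and 158 TPM in dsGFP. The 5 subunits common to Pol I, Pol II and Pol III all had log2 ratios below 0, from -0.44 (Polr2h) to -0.10 (Polr2f), and a median of -0.28. By the size rule 0 of the 5 were called, where 15.2% of all genes were higher and 15.3% lower. In the members' range of abundance 7.22% of genes were higher and 6.94% lower. Polr2e, the most abundant of them, had 724 TPM in dsNat10 and 871 TPM in dsGFP.

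The remaining SL1 genes did not follow Taf1a and Taf1b as one. Of 4, 2 had log2 ratios above 0 and 2 below, with a median log2 ratio of 0.23. Of those below, Taf1d, named after its values were seen, was nearly level, with 915 reads in dsNat10 and 928 in dsGFP. Its log2 ratio was -0.01, but 0.05 in TPM and 0.02 in FPKM. By the size rule 0 were called, against the same shares of other genes. Tbp, the TATA-binding protein that SL1 shares with other initiation complexes, had 3076 reads in dsNat10 and 1912 in dsGFP and was 1.63-fold higher in dsNat10 (1.53 to 1.72). Taf12, the most abundant, had 125 TPM in dsNat10 and 86.9 TPM in dsGFP. Taf1c, which encodes the large SL1 subunit and has a fractional count, had 637 reads in dsNat10 and 919 in dsGFP and was 1.43-fold lower in dsNat10 (1.29 to 1.58). The TPM of Taf1a was 7.99 times that of Taf1c in dsNat10 and 1.99 times in dsGFP.

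**Figure D3:**
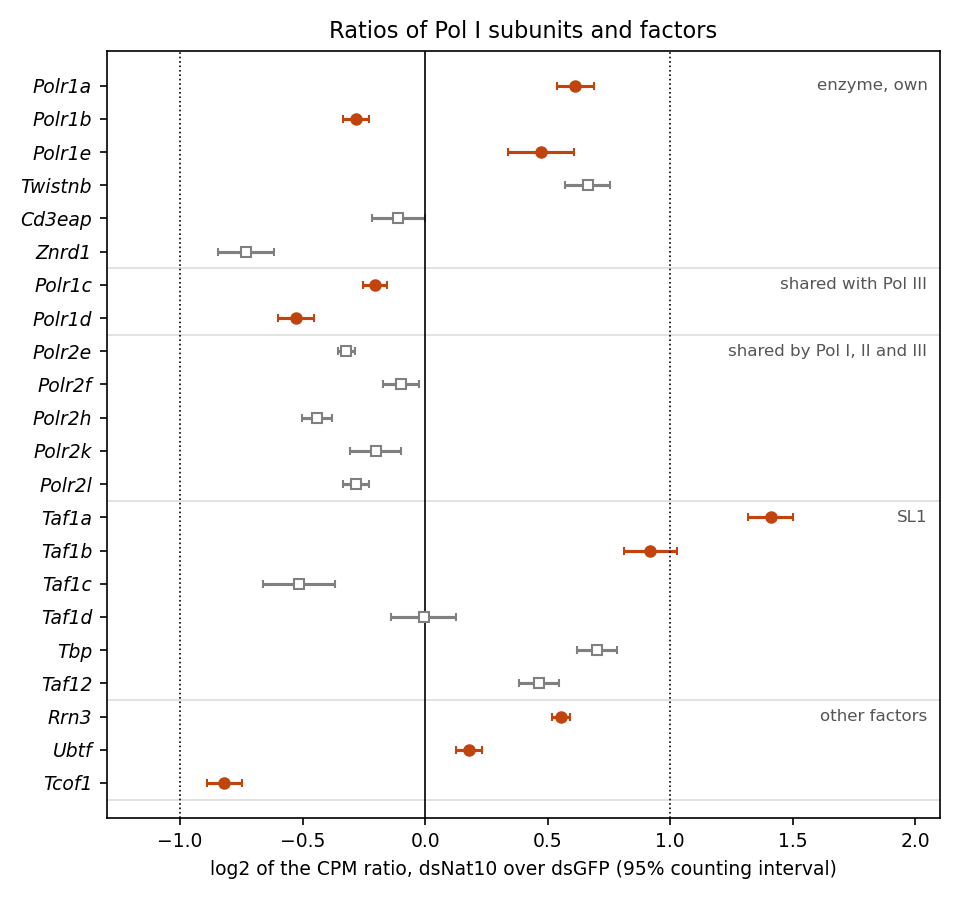
Log2 of the plain CPM ratio, dsNat10 over dsGFP, with its exact 95% counting interval, for the 10 members (red circles) and 12 other genes of Pol I subunits and SL1 (open grey squares), grouped by role. Dotted lines mark a log2 ratio of 1 in size, and the subunits shared between polymerases lie to the left of 0 while Taf1a lies beyond 1.

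Genes that act on the ribosomal DNA and its chromatin were counted by the same rule. Of 18, 1 was called higher and 5 lower in dsNat10, where 15.2% of all genes were higher and 15.3% lower, with a median log2 ratio of -0.29 that was nearer 0 in TPM (-0.08) and FPKM (-0.11). Myc, which stimulates Pol I transcription, had 344 reads in dsNat10 and 1310 in dsGFP and was 3.77-fold lower in dsNat10 (3.34 to 4.26). The other lower genes, named after their values were seen, were Baz1b, Baz2a, Suv39h1 and Cavin1. Sirt1, a deacetylase that takes part in silencing ribosomal DNA, had 746 reads in dsNat10 and 277 in dsGFP and was 2.72-fold higher in dsNat10 (2.37 to 3.13). Npm1, the abundant nucleolar protein nucleophosmin, had 1235 TPM in dsNat10 and 1772 TPM in dsGFP. With a mean limit of 20 CPM, Sirt1 no longer passed and 4 genes were lower, and at 50 CPM 1 was lower, Baz2a. In TPM and in FPKM 4 genes were lower, as Cavin1 was just short of the limit at log2 ratios of -0.99 and -0.97. With DESeq2 size factors, a pseudocount of 0.25 CPM or a 1.5-fold limit, 6 genes were lower. The genes of 6 small-subunit processome proteins linked to ribosomal DNA transcription were within the size limit. Of all genes 15.2% were higher and 15.3% lower, and in the members' range of abundance 7.22% were higher and 6.94% lower. These 6 genes had a median log2 ratio of 0.06, from -0.36 (Wdr75) to 0.20 (Utp15). The most abundant, Utp4, had 270 TPM in dsNat10 and 315 TPM in dsGFP.

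The genes of the other polymerases were set beside the members. Of 10 Pol III subunits past the mean limit, 2 were called higher and 0 lower, where 15.2% of all genes were higher and 15.3% lower, and 1 was higher at a mean limit of 50 CPM. Their median log2 ratio was -0.21, beside -0.20 for the 5 Pol I subunits among the members. Polr3b, the second largest subunit of Pol III, had 1044 reads in dsNat10 and 260 in dsGFP and was 4.06-fold higher in dsNat10 (3.54 to 4.67), where its Pol I counterpart Polr1b was 1.22-fold lower. Polr3d, named after its values were seen, was 2.16-fold higher in dsNat10 (2.02 to 2.32). Polr3c had the lowest ratio, 1.71-fold lower in dsNat10 (1.61 to 1.81), and Crcp was the most abundant, at 120 TPM in dsNat10 and 140 TPM in dsGFP. Of 16 Pol III factors, 3 were called higher and 0 lower, against the same shares of all genes, with a median of 0.50. At a mean limit of 20 CPM 1 was higher and the median was 0.27, and at 50 CPM 0 were higher and the median was 0.04. In TPM and in FPKM 2 were higher and 1 was lower. Brf1, a counterpart of TFIIB as Taf1b is, had 460 reads in dsNat10 and 84 in dsGFP and was 5.53-fold higher in dsNat10 (4.38 to 7.07). The other higher genes, named after their values were seen, were Snapc1 at 3.57-fold (2.94 to 4.35) and Gtf3c4, with 1380 reads in dsNat10 and 664 in dsGFP. Snapc3 was 1.73-fold lower in dsNat10 (1.52 to 1.97) with a fractional count, but had 4.1 FPKM in dsNat10 and 13.86 FPKM in dsGFP, with a log2 ratio of -1.57 in TPM and -1.54 in FPKM that made it the lower gene on those scales. Snapc5 was the most abundant, at 179 TPM in dsNat10 and 285 TPM in dsGFP. Of 7 subunits of Pol II's own, 0 were called, against the same shares of all genes. In the members' range of abundance 7.22% of genes were higher and 6.94% lower. Of the 7, 5 had log2 ratios below 0, with a median of -0.29, from -0.57 (Polr2g) to 0.12 (Polr2d). Polr2j was the most abundant at 683 TPM in dsNat10 and 809 TPM in dsGFP. No difference between these lists was tested.

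**Figure D4:**
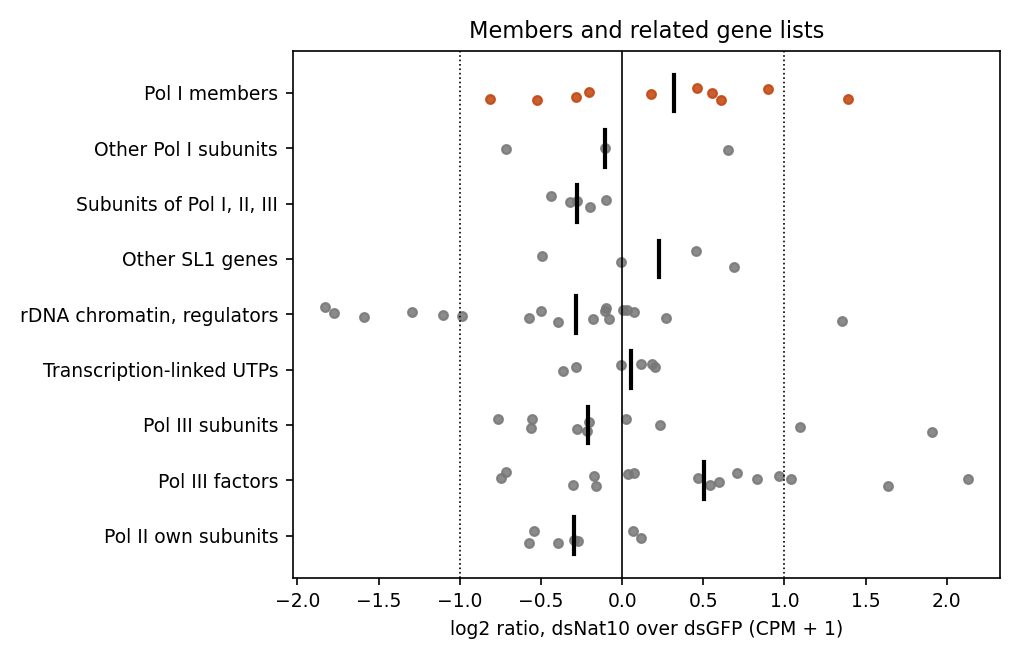
Log2 ratio of CPM plus 1, dsNat10 over dsGFP, of each gene past the mean limit of 5 CPM, for the 10 members (red) and 8 related lists (grey), with a black bar at each median. The medians run from -0.29 for the subunits of Pol II's own to 0.50 for Pol III factors, and the members stand at 0.32.

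The 10 genes lie on 10 different chromosomes. In RefSeq coordinates of GRCm38.p6, Taf1a lies at chr1:183388885-183410201, Polr1b at chr2:129100970-129128060, Polr1e at chr4:45018609-45034279, Polr1d at chr5:147076715-147111361, Polr1a at chr6:71909053-71979435, Taf1b at chr12:24498581-24558571 and Rrn3 at chr16:13780699-13814841, all on the plus strand. Ubtf at chr11:102304560-102323649 and Polr1c at chr17:46243920-46248045 are on the minus strand. Their transcripts differ in base composition. In human cells, N4-acetylcytidine in mRNA was described at cytidines followed by any pair of bases, a pattern that repeats. Windows of 5 such cytidines in a row, each separated from the next by any 2 bases, were counted in the longest protein-coding transcript of each gene in GENCODE M21. Polr1d had 12 such windows in 1196 bases (10.03 per kb) and Tcof1 had 34 in 4595 bases (7.40 per kb), against a median of 2.35 per kb over 8488 genes past the mean limit. Taf1b had 2 in 2209 bases (0.905 per kb), the fewest per kb of the 10. Taf1a had 2.04 per kb, Rrn3 1.95, Polr1a 1.84, Polr1c 2.28, Polr1e 3.01, Ubtf 3.20 and Polr1b 3.75. A window is a stretch of letters and not a modified site, and no modification was measured in this table.

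**Figure D5:**
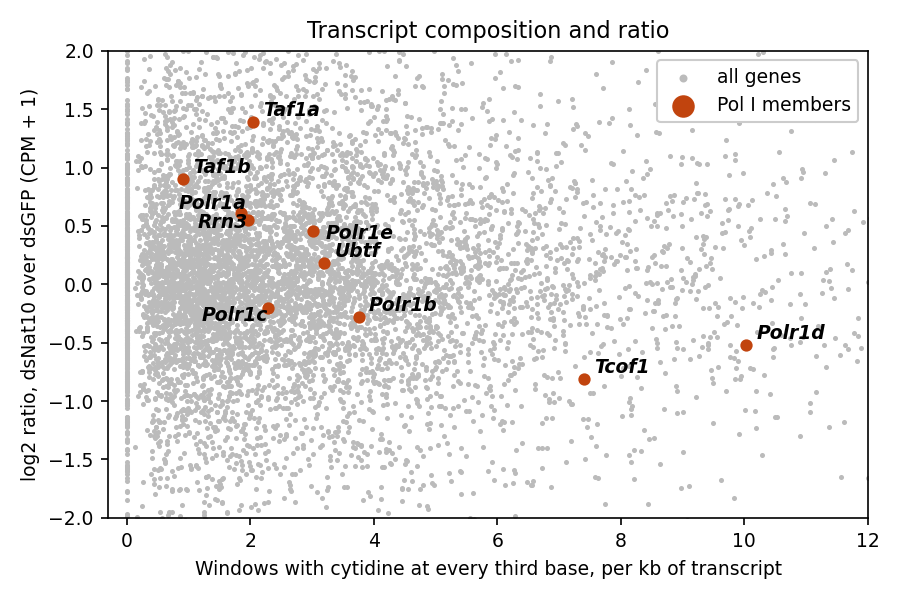
Log2 ratio of CPM plus 1, dsNat10 over dsGFP, against the number of windows with evenly spaced cytidines per kb of the longest protein-coding transcript, for 7240 of 8488 genes (grey, those inside the axes) and the 10 members (red). Polr1d at 10.03 and Tcof1 at 7.40 windows per kb have the lowest ratios of the members, -0.52 and -0.81, and over all 8488 genes the rank correlation is 0.03.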

How the data were processed

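Gene expression was measured in 1 dsNat10 and 1 dsGFP library of polyadenylated RNA, made by SMART-seq2, which amplifies cDNA by PCR, and read as pairs on the DNBSEQ platform, per the labels' protocols and the series' design text. The submitters' processing notes list Trim Galore, HISAT, HTSeq and GRCm38. Their versions and the annotation were not given in the sources used here. Estimated counts as deposited are raw and are fractional for 23.2% of genes, although HTSeq gives whole numbers, and the step that split reads is unknown. TPM and FPKM were also deposited by the authors.

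Estimated counts were rounded and scaled by TMM (edgeR 4.0.16, R 4.3.3), which moved the log2 ratio by -0.03 against plain totals. Exact (Clopper-Pearson) 95% intervals of count ratios and Poisson intervals of levels cover counting error only, since amplified reads lack molecular identifiers and are not independent. Folds with an interval are plain CPM ratios, and log2 ratios add 1 CPM, which understates low genes. No p-value was computed.

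The members and lists were chosen with earlier results of these data known. Named genes are the members, Nat10 and, from each list, the genes with the highest and lowest log2 ratio past the mean limit and the most abundant by TPM, and others are said to be named after their values were seen. Alternatives were plain totals, DESeq2 1.42.0 size factors, TPM, FPKM, a pseudocount of 0.25 CPM, mean limits of 20 CPM and none, and a 1.5-fold limit. A mean limit of 50 CPM was added after seeing the data. Promoter sequences and coordinates came from RefSeq (GRCm38.p6), where all 10 Entrez identifiers matched, and transcripts from GENCODE M21, matched for 97.1% of genes past the mean limit.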

Additional observations from a re-analysis of the deposited data

How the results depend on the processing

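With 1 library per group no replicate could be left out. No paired analysis was possible because the groups hold 1 library each. Over 9 alternatives, 0 of 90 log2 ratios of the members changed sign, and Taf1a was called higher under each. The limit of 1.5-fold gave 3 members higher and 1 lower, in place of 1 and 0. The median log2 ratio of the members was 0.18 at a mean limit of 50 CPM, where Polr1e no longer passes, and 0.30 to 0.36 otherwise. The median of all genes was -0.14 with no mean limit. The log2 ratio of Nat10 was -3.79, and -3.07 in TPM, -2.77 in FPKM and -4.32 with a pseudocount of 0.25 CPM. Calls over all genes numbered 1330 higher and 1334 lower, and 524 and 502 at a mean limit of 20 CPM, 167 and 164 at 50 CPM, 1681 and 3252 with none and 2196 and 2081 at 1.5-fold. Of 216 counts and medians of the related lists under alternatives, 22 moved by over 1.5 times in count or over 0.1 in median. The lowest count of a member was 773 reads, and counting intervals are narrow at such depth. The counting interval of each member's ratio left out equality, even that of Ubtf at 1.13-fold (1.09 to 1.18). The share of all genes for which this held was not counted, so it is no trait of the members. The spread between embryos is unknown, and no interval here covers it.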

Other observations

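Across the 10 members, the log2 ratio ran against the density of the windows of evenly spaced cytidines, a relation noticed after the values were seen. Spearman's rho was -0.88 and Pearson's r -0.75 over 10 genes, which share the same libraries. GC content of the transcript, from 45.3% in Taf1b to 58.2% in Tcof1, gave nearly the same values, with a rho of -0.87 and an r of -0.86, so density and GC content cannot be told apart in so few genes. Transcript length gave a rho of -0.01. Over the 4098 genes of like abundance with a transcript, rho was 0.05 for the density of windows and -0.02 for GC content, far nearer 0 than in the 10 members. Of those genes, the 1024 with the most windows, among which are Polr1d and Tcof1, had a median log2 ratio of 0.01, and the 1025 with the fewest had one of -0.05.

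Of the 18 genes that act on ribosomal DNA, 5 had log2 ratios above 0 and 13 below, and the values of some are given here, named after they were seen. Ttf1, the Pol I termination factor, had 2232 reads in dsNat10 and 1862 in dsGFP, with a fractional count. Baz2a, the large subunit of the nucleolar remodelling complex NoRC, had 883 reads in dsNat10 and 2740 in dsGFP and was 3.07-fold lower in dsNat10 (2.85 to 3.32). Its partner Smarca5, an ATPase found in several complexes, had 2827 reads in dsNat10 and 3064 in dsGFP, 1.07-fold lower. Suv39h1 and Rrp8, which form the nucleolar silencing complex eNoSC with Sirt1, were 2.55-fold (2.28 to 2.86) and 2.01-fold (1.87 to 2.16) lower in dsNat10, with Rrp8 just short of the size limit at a log2 ratio of -0.99, while Sirt1 was 2.72-fold higher. Baz1b, a subunit of the remodelling complex WICH, was 3.58-fold lower in dsNat10 (3.22 to 3.99), and Cavin1, also known as the Pol I transcript release factor PTRF, 2.24-fold lower (1.97 to 2.55). Sirt7, which activates Pol I, had 2980 reads in dsNat10 and 2954 in dsGFP.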
